A study of Mus musculus with 2 samples.

Results

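The genes of the endoplasmic reticulum (ER) described here build, fold, check and export secreted proteins, and some of them sense ER stress. They were taken by symbol from a list of 43 ER chaperone, unfolded protein response and secretion genes, and all 43 were found among the 24532 genes of the count table. The cells were cardiac myofibroblasts isolated from C57BL/6 mouse hearts 3 days after myocardial infarction (MI), taken as the CD45-negative cells that attached to plastic. The labels give the strain as C57BL/6, and the methods of the study name C57BL/6J for work on isolated myofibroblasts. They were transfected with 12.5 nM of a control siRNA (siCtrl) or of an siRNA against *Vgll3* (si*Vgll3*), and RNA was collected after 72 h. Both cultures were otherwise handled alike, with Lipofectamine RNAiMAX in DMEM with serum, and no untransfected library was analysed here. There was 1 library per condition, so no difference has a replicate check and the conditions could not be tested, and no p-value is given. The labels do not say how many mice gave the cells of a library.

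Collagen-secreting cells load the ER heavily. Nascent chains enter through the SEC61 channel, signal peptidase removes their signal peptide, and BiP, GRP94, the lectin chaperones calnexin and calreticulin and the protein disulphide isomerases fold them. Chains that fail are pulled back to the cytosol and degraded, and folded cargo leaves in COPII-coated vesicles, with TANGO1 helping procollagen to enter them. When unfolded chains accumulate, the sensors IRE1, PERK and ATF6 start the unfolded protein response (UPR). IRE1 splices *Xbp1* mRNA, ATF6 is cleaved to a transcription factor, and both factors act on elements in the promoters of chaperone genes.

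Those elements are shown first, because they are the sequence feature that a subset of these genes shares and that the list itself did not use. A window from 250 bases before to 50 bases after the annotated start, from RefSeq on GRCm38.p6 (the assembly also called mm10), was found for 36 of the 43 genes. *Atf6*, *Derl1*, *Hyou1*, *Manf*, *Sec61a1*, *Spcs3* and *Ssr2* had no window in the table. The windows were searched on both strands for the ER stress response element (ERSE) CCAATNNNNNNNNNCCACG, for ERSE-II ATTGGNCCACG and for 2 forms of the UPR element (UPRE), TGACGTGG and TGACGTGA. No letters of the 4 patterns were allowed to differ. Matches are a description of letters in a window and not evidence of binding, and the elements were first described in promoters of some of these same genes. ERSE was found in 9 of the 36 genes, against 37 of 27025 genes with a window (0.137%). ERSE-II was found in 2 of the 36, against 12 of the 27025 (0.0444%). The first UPRE form was found in *Sec23a*, *Sec24d* and *Txndc5*, against 0.714% of all genes with a window, and the second was found in *Hspa5* alone among the 36, against 0.507%.

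The whole window is given for BiP (*Hspa5*) and GRP94 (*Hsp90b1*), the best-known ER stress markers among these genes, 5′ to 3′ on the strand of the gene, with ERSE in capitals. The *Hspa5* window is chr2:34771840-34772139 on the plus strand, with ERSE 65 bases before the start. The *Hsp90b1* window is chr10:86705395-86705694 on the minus strand, and it was the only one of the 36 to hold ERSE in 2 places, 212 and 107 bases before the start and in opposite orientations.
Hspa5: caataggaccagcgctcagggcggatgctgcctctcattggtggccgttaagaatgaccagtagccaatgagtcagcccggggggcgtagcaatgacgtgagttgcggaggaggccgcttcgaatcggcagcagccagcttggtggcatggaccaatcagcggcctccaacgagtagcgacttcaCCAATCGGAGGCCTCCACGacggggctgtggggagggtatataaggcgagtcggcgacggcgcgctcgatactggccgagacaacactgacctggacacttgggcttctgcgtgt
Hsp90b1: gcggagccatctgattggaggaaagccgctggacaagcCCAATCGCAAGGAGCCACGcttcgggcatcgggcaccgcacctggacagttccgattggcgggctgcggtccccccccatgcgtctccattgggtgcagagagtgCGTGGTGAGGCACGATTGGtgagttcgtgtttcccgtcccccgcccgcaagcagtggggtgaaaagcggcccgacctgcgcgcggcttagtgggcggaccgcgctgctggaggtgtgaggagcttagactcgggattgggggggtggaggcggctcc

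The other matches, the UPRE of *Hspa5* among them, are given with 5 bases on each side and the position of the match itself, in capitals where they match, so that the fixed ends and the differing middle of the element can be compared. They are written 5′ to 3′ on the strand of the gene, so an ERSE that runs against the gene reads in reverse complement, as in *Calr*, *Creld2* and *Derl3*. ERSE matches began between 44 bases (*Syvn1*) and 212 bases (*Hsp90b1*) before the start. The ERSE-II match of *Herpud1* began 52 bases before the start and that of *Dnajb11* 7 bases after it. A gene can have several annotated starts, and the starts used for *Txndc5* and *Sec24d* lie inside the full span of the gene.
Calr, chr8:84847075-84847093, minus strand: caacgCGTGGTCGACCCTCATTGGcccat
Canx, chr11:50325800-50325818, minus strand: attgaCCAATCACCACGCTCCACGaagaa
Creld2, chr15:88819520-88819538, plus strand: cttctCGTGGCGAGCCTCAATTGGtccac
Derl3, chr10:75893242-75893260, plus strand: tctacCGTGGGACTTCCCCATTGGctagc
Dnajc3, chr14:118937827-118937845, plus strand: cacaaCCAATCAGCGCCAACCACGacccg
Pdia6, chr12:17266491-17266509, plus strand: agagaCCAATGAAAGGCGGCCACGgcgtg
Syvn1, chr19:6046532-6046550, plus strand: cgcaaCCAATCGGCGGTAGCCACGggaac
Dnajb11 (ERSE-II), chr16:22857852-22857862, plus strand: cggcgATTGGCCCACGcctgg
Herpud1 (ERSE-II), chr8:94386377-94386387, plus strand: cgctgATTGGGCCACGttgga
Hspa5 (UPRE, second form), chr2:34771933-34771940, plus strand: agcaaTGACGTGAgttgc
Sec23a (UPRE, first form), chr12:59012004-59012011, minus strand: cccttTGACGTGGcagag
Sec24d (UPRE, first form), chr3:123267470-123267477, plus strand: gcgccTGACGTGGcacta
Txndc5 (UPRE, first form), chr13:38528045-38528052, minus strand: gccgcTGACGTGGcgcta

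**Figure D1:**
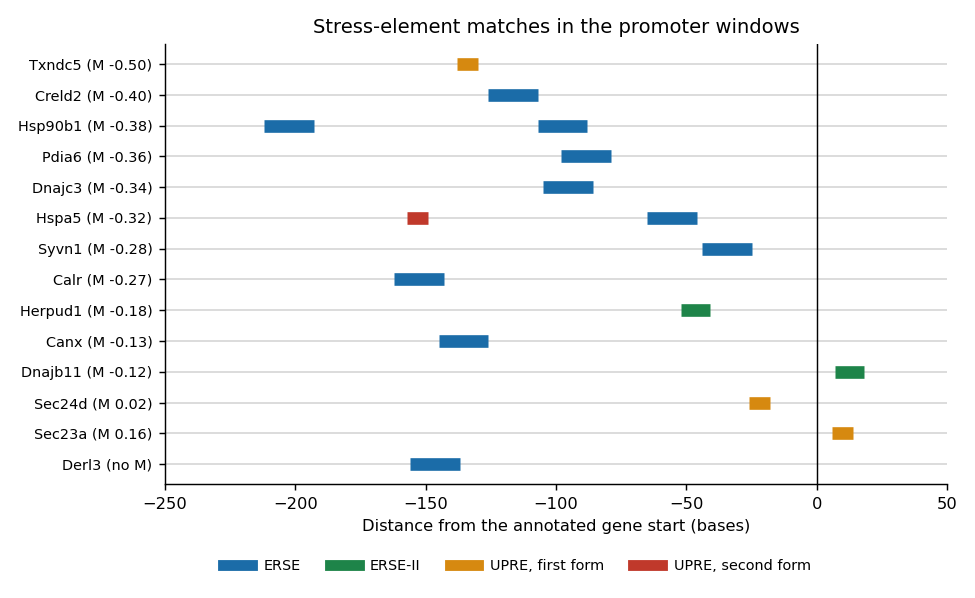
Each line is the window of 1 gene from 250 bases before to 50 bases after its annotated start, and each block is an element match, coloured by element. Genes are ordered by M, the log2 ratio of the si*Vgll3* to the siCtrl library. The 8 genes with ERSE and an M lie between −0.40 and −0.13, while the first form of UPRE is found in genes at −0.50, 0.02 and 0.16.

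The levels come from the TPM values (transcripts scaled to a fixed total) that the authors deposited, in which reads are divided by gene length as well as by library total, so that different genes can be compared. M is the log2 ratio of si*Vgll3* TPM to siCtrl TPM with nothing added, and a negative M means a lower level in the si*Vgll3* library. Square brackets give the 95% interval that counting allows for M, by the Clopper-Pearson method on the 2 read counts. It leaves out every error other than counting, and reads copied by PCR are not independent molecules. Reads counted on genes numbered 140815237 in siCtrl and 125789276 in si*Vgll3*. *Vgll3* itself was at 202 TPM with siCtrl and 84.0 with si*Vgll3*, or 41.6% of the siCtrl level, the direction the labels give. The fibroblast and myofibroblast markers were all present, 13 of 13 with a mean above 1 TPM, with a summed level of 24991 TPM with siCtrl and 22043 with si*Vgll3*. They did not move as one, since 6 had M below −0.5 (*Postn* and *Lum* lowest, at −1.22 and −1.23) and 3 had M above 0.5 (*Cnn1* at 1.13, *Thy1* at 0.72 and *Tagln* at 0.52). Of the leukocyte list 4 of 10 genes had a mean above 1 TPM, with sums of 15.0 and 8.46 TPM, and *Ptprc*, *Adgre1*, *Itgam* and *Cd3e* had 0 reads in both libraries. The lower sum came from *Lyz2* (10.9 and 3.13 TPM), while *Csf1r* and *Cd14* were higher with si*Vgll3* (M of 0.50 and 0.62). Of the endothelial list 5 of 8 passed, with sums of 32.9 and 30.5 TPM, of which *Tek* gave 19.5 and 13.4 TPM. *Pecam1*, *Cdh5* and *Egfl7* were higher with si*Vgll3*, and the median M of the 5 was 0.42. In the cardiomyocyte list only *Tnnt2* passed, at 60.0 and 10.4 TPM, and *Myh6*, *Myh7*, *Actn2*, *Ryr2*, *Pln* and *Nppa* had 0 reads in both. In the pericyte and vascular smooth muscle list only *Notch3* passed, and the sums were 16.2 and 9.51 TPM. In the plasma cell list, set because such cells are rich in ER, only *Sdc1* passed, and *Jchain*, *Mzb1* and *Tnfrsf17* had 0 reads in both. *Sdc1* was at 137 and 171 TPM, and fibroblasts also express it. The part of other cell types, or of the state of the myofibroblasts, in the differences given here was not tested. In RNA from a whole culture, fewer cells of a type and less RNA per cell cannot be told apart.

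Of the 43 genes, 42 had TPM listed and a mean above 1 TPM, and they are compared with the 11754 genes that passed the same filter. They were abundant in these cells. Their median was 164 TPM with siCtrl and 157 with si*Vgll3*, against 20.5 and 19.3 TPM over all genes, and 19 of the 42 were among the 1000 genes of highest mean TPM. Their levels summed to 15544 TPM with siCtrl, or 1.56% of all TPM, and to 13284 TPM with si*Vgll3*, or 1.33%, so the sum was 14.5% lower in the si*Vgll3* library. Of the sum in siCtrl, 10455 TPM came from the 16 chaperones and folding enzymes and 3661 TPM from the 10 genes of the translocon, the TRAP complex and signal peptidase. The 43rd gene, *Derl3*, was counted 26 times with siCtrl and 0 times with si*Vgll3*, and it has no TPM. Since 0 reads allow up to 3, its share of counted reads was compared with 3 reads set for si*Vgll3* and the 26 of siCtrl taken as counted. On that reckoning it was 7.74-fold lower in the si*Vgll3* library. This is not a lower bound, since the counting error of the 26 reads is left out and is large at this depth.

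**Figure D2:**
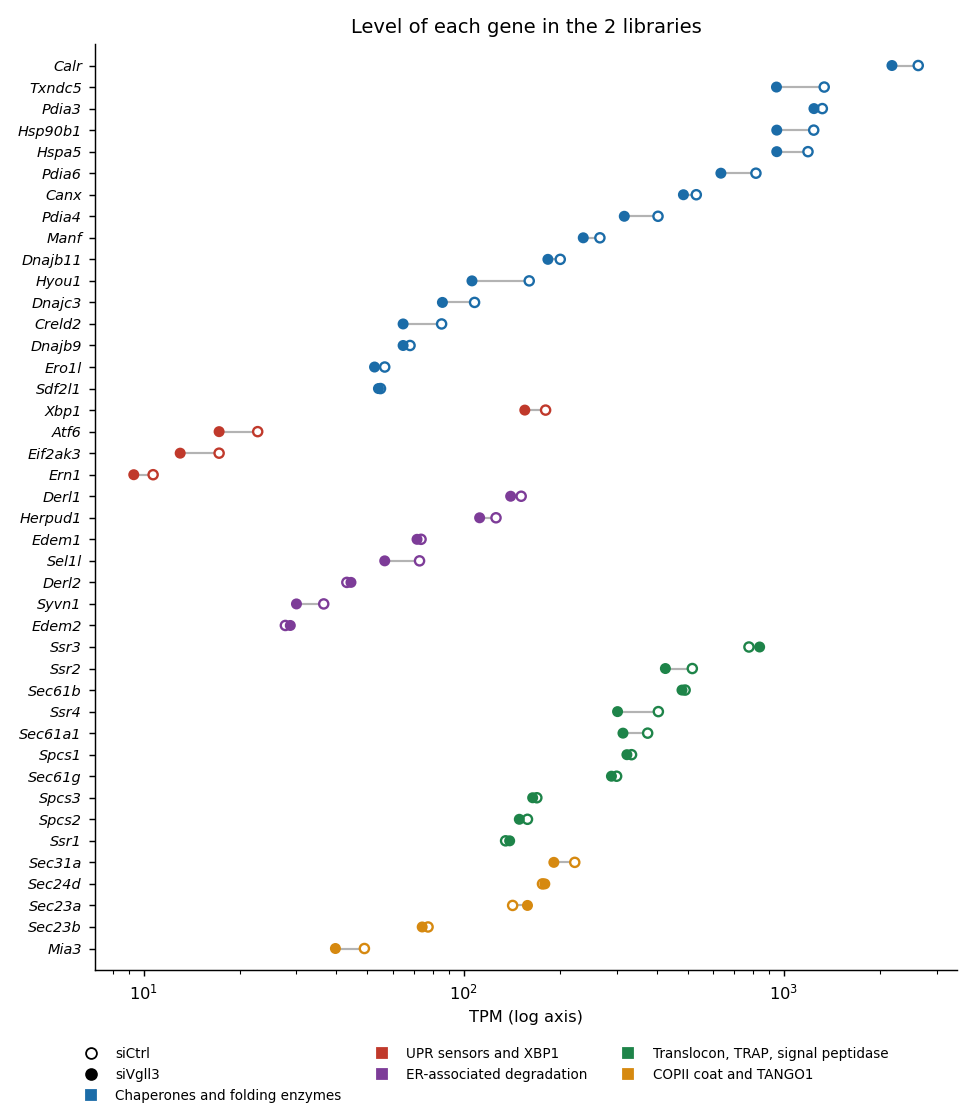
Each line is 1 gene, with its TPM in siCtrl (open circle) and si*Vgll3* (filled circle) on a log axis, coloured by role and ordered within a role by the siCtrl level. *Calr* is highest in both libraries (2625 and 2173 TPM) and *Ern1* lowest (10.7 and 9.31 TPM), and in all 16 chaperones and folding enzymes the filled circle lies to the left.

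Most of the genes were lower in the si*Vgll3* library, and by little. M was below 0 for 36 of the 42, against 57.0% of all genes, and the median M was −0.18, against −0.05 over all genes. The counting interval lay wholly below 0 for 35 of the 42, against 45.8% of all genes. The threshold of the study, M below −0.5, was passed by *Hyou1* alone, 1 of 42 against 11.4% of all genes, and M above 0.5 by 0 of 42 against 5.73%. At a threshold of 0.25, chosen after the values were seen, 17 of the 42 lay below −0.25, against 25.7% of all genes, and 0 lay above 0.25, against 14.4%. Since abundant genes as a whole moved less, the same was counted over genes with a mean above 32 TPM. There, 33 of 38 had M below 0, against 50.9% of all such genes, and 15 of 38 lay below −0.25, against 17.2%. M below −0.5 was found in 1 of the 38, against 6.47% of all such genes, and M above 0.5 in 0, against 3.24%. The median M of these 38 was −0.15, and that of all such genes was −0.01. Scaling bears on the smallest of these differences. With the counts scaled by library total (CPM), by TMM or by DESeq2's size factors, or with the all-gene median subtracted from M, in place of TPM, 31, 33, 34 and 33 of the 42 had M below 0, and 31 were below 0 under all 4. The share of all genes below 0 moved as well, to 49.3%, 50.5% and 51.0% with CPM, TMM and size factors, and centring sets the median of all genes at 0. *Sdf2l1*, *Edem1*, *Sec61b*, *Spcs1* and *Spcs3* changed sign under at least 1 of them. No scaling moved the median of all genes by more than 0.1.

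**Figure D3:**
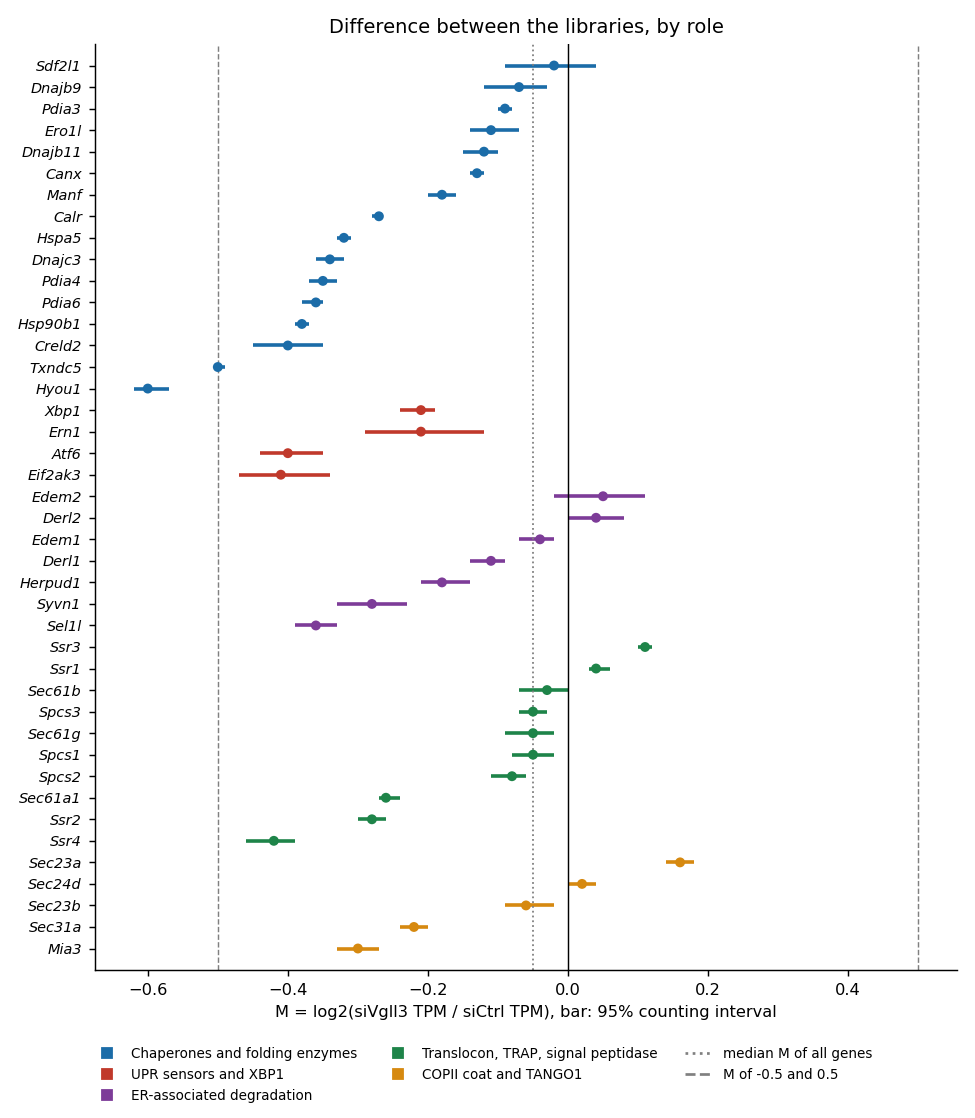
Each line is 1 gene with its M (point) and 95% counting interval (bar), grouped by role. The dotted line marks the median M of all genes (−0.05), and the dashed lines mark −0.5 and 0.5. The chaperones spread from −0.60 (*Hyou1*) to −0.02 (*Sdf2l1*), while the COPII and TRAP genes lie on both sides of 0.

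The chaperones and folding enzymes were lower as a group in the si*Vgll3* library. All 16 had M below 0, with a median of −0.30, and 9 lay below −0.25. All 16 had a mean above 32 TPM, and of all such genes 50.9% were below 0 and 17.2% below −0.25. Among them only *Sdf2l1*, a partner of the BiP co-chaperones, had a counting interval that held 0 (54.9 TPM with siCtrl and 54.1 with si*Vgll3*), and its M was 0.02 to 0.03 under the 4 other scalings. BiP (*Hspa5*, chromosome 2 from 34772090 to 34776529), the HSP70 of the ER lumen and the protein that holds the UPR sensors inactive, was at 1188 TPM with siCtrl and 949 with si*Vgll3*. This was an M of −0.32 [−0.33, −0.31]. GRP94 (*Hsp90b1*), the HSP90 of the lumen, was at 1238 and 949 TPM, an M of −0.38 [−0.39, −0.37]. The nucleotide exchange factor of BiP, *Hyou1* (chromosome 9 from 44379490 to 44392369), was at 160 TPM with siCtrl and 106 with si*Vgll3*. Its M of −0.60 [−0.62, −0.57] was the lowest of the 42 and stayed below −0.5 under each scaling, at −0.54 or lower. The level of *Hspa5* relative to *Hyou1* was 7.44 with siCtrl and 8.97 with si*Vgll3*. Such ratios do not depend on the scaling between libraries, and 12 were computed, for pairs chosen with the values known.

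The co-chaperones of the DNAJ family, which bring substrates to BiP and trigger its ATPase, were unequal. *Dnajc3* was at 108 TPM with siCtrl and 85.7 with si*Vgll3*, an M of −0.34. *Dnajb11* was at 200 and 183 TPM, an M of −0.12, and *Dnajb9* at 67.9 and 64.6 TPM, an M of −0.07 [−0.12, −0.03]. The small ER stress-induced protein *Creld2* was at 85.2 and 64.6 TPM, with an M of −0.40 [−0.45, −0.35]. *Manf*, a BiP-binding protein that is also secreted, was at 266 and 236 TPM, an M of −0.18.

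Among the disulphide isomerases, which form and rearrange disulphide bonds, *Txndc5* differed most. It was at 1335 TPM with siCtrl and 947 with si*Vgll3*, 29.1% lower, with an M of −0.50 [−0.50, −0.49] that rounds to the threshold but did not pass it. *Pdia6* was at 817 and 635 TPM and *Pdia4* at 404 and 317 TPM, with M of −0.36 and −0.35. *Pdia3*, the isomerase that works with calnexin and calreticulin, was at 1317 TPM with siCtrl and 1240 with si*Vgll3*, an M of −0.09 [−0.10, −0.08]. The ratio of *Hspa5* to *Pdia3* was accordingly 0.902 in siCtrl and 0.765 in si*Vgll3*. *Ero1l*, the oxidase that recharges the isomerases, was at 56.6 and 52.6 TPM, an M of −0.11.

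The lectin chaperones hold glycoproteins during folding, *Canx* in the membrane and *Calr* in the lumen. *Calr* was the most abundant of the 42, at 2625 TPM with siCtrl and 2173 with si*Vgll3*, an M of −0.27 [−0.28, −0.27]. *Canx* was at 532 and 485 TPM, an M of −0.13 [−0.14, −0.12]. The ratio of *Calr* to *Canx* was 4.94 in siCtrl and 4.48 in si*Vgll3*, a log2 difference of −0.14 [−0.15, −0.13].

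The 3 sensors and *Xbp1* were all lower in the si*Vgll3* library, with a median M of −0.31, and 2 of the 4 lay below −0.25. Of all genes, 57.0% were below 0 and 25.7% below −0.25, so 4 genes say little as a group. *Eif2ak3*, which encodes PERK, was at 17.2 TPM with siCtrl and 13.0 with si*Vgll3*, an M of −0.41 [−0.47, −0.34]. *Atf6* was at 22.7 and 17.2 TPM, an M of −0.40 [−0.44, −0.35]. *Ern1*, which encodes IRE1, was the least abundant of the 42, at 10.7 and 9.31 TPM, an M of −0.21 [−0.29, −0.12]. *Xbp1* was at 180 and 155 TPM, an M of −0.21 [−0.24, −0.19]. Counts per gene do not separate spliced from unspliced *Xbp1*, and the activity of the sensors, which is set by their proteins, was not measured by these libraries.

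The genes of ER-associated degradation, which returns misfolded chains to the cytosol, spread around a median M of −0.11. *Sel1l*, the adaptor of the ubiquitin ligase HRD1, was at 72.7 TPM with siCtrl and 56.6 with si*Vgll3*, an M of −0.36 [−0.39, −0.33]. *Syvn1*, which encodes HRD1, was at 36.5 and 30.0 TPM, an M of −0.28 [−0.33, −0.23]. *Herpud1*, a membrane protein of the same complex, was at 126 and 112 TPM, an M of −0.18. Of the 7 degradation genes with an M, these 3 among them, 5 had a counting interval wholly below 0, against 45.8% of all genes. Of the others, 1 had an interval wholly above 0 and 1 had an interval that held 0. *Derl1* and *Derl2* help to pull chains out through the membrane. *Derl1* was at 151 and 140 TPM, an M of −0.11, and *Derl2* at 43.1 and 44.4 TPM, an M of 0.04. *Edem1* and *Edem2* act in trimming mannose from glycoproteins that fail to fold. *Edem1* was at 73.5 and 71.4 TPM, an M of −0.04, and *Edem2* at 27.7 and 28.7 TPM, an M of 0.05. The counting interval of *Edem2* held 0, and *Edem1* was above 0 under 3 of the 4 other scalings.

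The machinery of ER entry was close to the median of all genes, with a median M of −0.05 over 10 genes. Within it the subunits of single complexes differed. In SEC61, the channel subunit *Sec61a1* was at 375 TPM with siCtrl and 314 with si*Vgll3*, an M of −0.26 [−0.27, −0.24]. The small subunits were close to 0 in M, with *Sec61b* at 491 and 480 TPM (−0.03) and *Sec61g* at 300 and 289 TPM (−0.05). The ratio of *Sec61b* to *Sec61a1* was 1.31 in siCtrl and 1.53 in si*Vgll3*. In TRAP, the translocon-associated complex, *Ssr4* was at 405 and 302 TPM, an M of −0.42 [−0.46, −0.39], and *Ssr2* was at 517 and 426 TPM, an M of −0.28. *Ssr3* was higher in the si*Vgll3* library, at 777 TPM with siCtrl and 839 with si*Vgll3*, an M of 0.11 [0.10, 0.12], and *Ssr1* was at 135 and 139 TPM, an M of 0.04. The 4 TRAP subunits thus lay on both sides of 0. The ratio of *Ssr3* to *Ssr4* was 1.92 in siCtrl and 2.78 in si*Vgll3*, a log2 difference of 0.53 [0.50, 0.57], the largest of the 12 ratios that were computed. The 3 listed subunits of signal peptidase lay together, while its catalytic subunits, outside the list and named after their values were seen, had M of 0.10 (*Sec11a*) and −0.21 (*Sec11c*). *Spcs1* was at 334 and 323 TPM, *Spcs2* at 158 and 149 TPM and *Spcs3* at 169 and 164 TPM, with M of −0.05, −0.08 and −0.05.

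The COPII coat genes lay on both sides of 0, with a median M of −0.06 over 5 genes. *Mia3*, which encodes TANGO1, was at 48.9 TPM with siCtrl and 39.7 with si*Vgll3*, an M of −0.30 [−0.33, −0.27]. The outer coat gene *Sec31a* was at 222 and 191 TPM, an M of −0.22 [−0.24, −0.20]. In the inner coat, *Sec23a* was higher in the si*Vgll3* library, at 142 and 158 TPM, and its M of 0.16 [0.14, 0.18] was the highest of the 42. Its paralogue *Sec23b* was at 77.3 and 74.1 TPM, an M of −0.06, and the ratio of *Sec23a* to *Sec23b* was 1.83 in siCtrl and 2.14 in si*Vgll3*. *Sec24d*, which binds cargo, was at 176 and 179 TPM, an M of 0.02. The sum over these 5 genes was 666 TPM with siCtrl and 642 with si*Vgll3*, 3.63% lower, while the sum over the chaperones and folding enzymes was 18.3% lower.

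**Figure D4:**
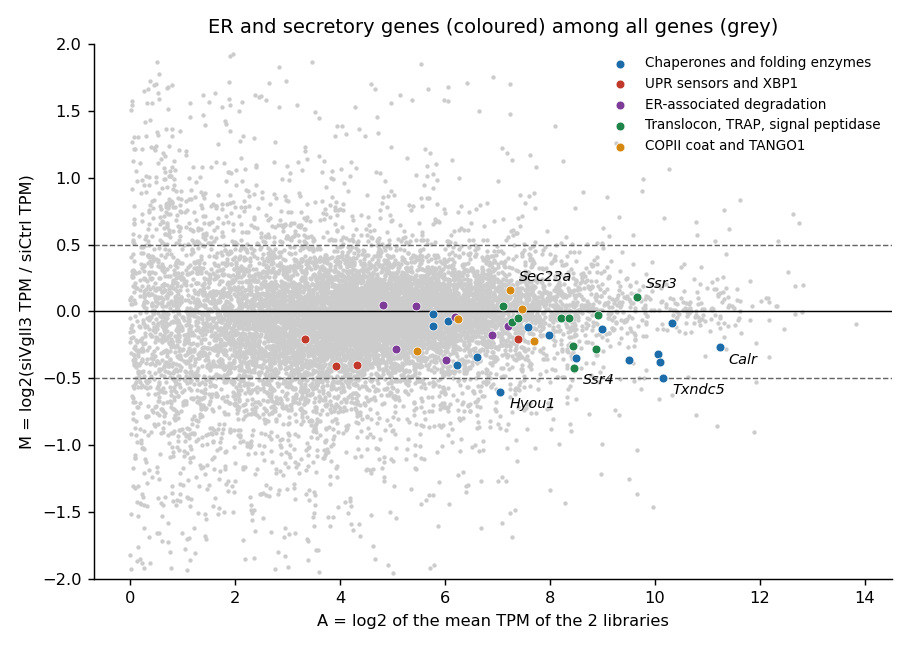
Each grey point is 1 of the genes with a mean above 1 TPM, with A, the log2 of the mean TPM, on the horizontal axis and M on the vertical axis. The 42 ER and secretory genes are coloured by role, the dashed lines mark −0.5 and 0.5, and 99 genes with M beyond 2 in either direction are not drawn. The coloured points lie to the right, and only *Hyou1* lies beyond a dashed line.

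The genes with an ERSE or ERSE-II match, shown above, were set beside those without. Of the 11 such genes 10 had an M, all of them below 0, with a median of −0.30 and a range from −0.40 to −0.12. The 25 genes that had a window and neither element had a median of −0.07, and 19 of them were below 0. Genes without a window could not be placed in either group, and all of them were below 0. They were *Hyou1* (−0.60), *Atf6* (−0.40), *Ssr2* (−0.28), *Sec61a1* (−0.26), *Manf* (−0.18), *Derl1* (−0.11) and *Spcs3* (−0.05). Of the 10, 8 are chaperones or folding enzymes and 2, *Syvn1* and *Herpud1*, act in ER-associated degradation, so the element goes with the role. Among the chaperones and folding enzymes alone, a split chosen after the values were seen, the 8 with either element had a median M of −0.33 and the 6 with a window and neither had −0.10, from *Txndc5* at −0.50 to *Sdf2l1* at −0.02. Below −0.25 lay 6 of the 8, and 2 of the 6, *Txndc5* and *Pdia4* (−0.35). *Hyou1* and *Manf*, without a window, are left out of this split, and so few genes do not separate the element from other differences between them. Outside the list, 14 of the 38 other genes with either element had a mean above 1 TPM. Their median M was −0.19 and 12 of the 14 were below 0, against 57.0% of all genes. They ranged from *Spats2l*, at −0.68, to *Zfp57*, at 0.66, both named after their values were seen. They include *Ero1lb*, at −0.19, which is also in the list of other ER folding factors below. The roles of the rest were not examined, so these 14 are not a set apart from the ER.

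The other genes of these pathways, 131 symbols outside the list, had a median M of −0.11 over 129 genes, with 91 below 0, 6 below −0.5 and 1 above 0.5, to be read against the same shares of all genes, 57.0%, 11.4% and 5.73%. The other ER folding factors had the lowest median of these lists, −0.19 over 29 genes, 23 of them below 0. The most abundant of them were *P4hb*, the shared subunit of prolyl 4-hydroxylase and a disulphide isomerase, at 2215 TPM with siCtrl and 1758 with si*Vgll3* (M of −0.33), and the proline isomerase *Ppib*, at 962 and 848 TPM (M of −0.18). The other UPR regulators had a median of 0.00 over 17 genes but spread widely. Below −0.5 lay *Ddit3* (−0.86), *Trib3* (−0.74), *Ppp1r15b* (−0.65) and *Atf4* (−0.56), which act in signalling through eIF2α, and the ATF6 relative *Atf6b* (−0.51). Whether PERK had a part in these differences was not tested. *Ppp1r15a*, a stress-induced gene of eIF2α signalling named after its value was seen, was at 0.30, and the abundant *Tmbim6* and *Bax* were at −0.12 and 0.12.

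The lists of degradation, entry and transport genes outside the 43 are read against 11.4% of all genes below −0.5 and 5.73% above 0.5. Over genes with a mean above 32 TPM these shares were 6.47% and 3.24%, so counts past the threshold in lists of this size say little. The other genes of ER-associated degradation had a median M of −0.05 over 20 genes and 0 past either threshold, with *Vcp*, the ATPase that extracts chains, at −0.02 and *Selenos* at −0.05. The signal recognition particle, translocation and oligosaccharyltransferase genes had a median of −0.07 over 24 genes and also 0 past either threshold, with *Rpn2* at −0.30 and *Ostc* at −0.42. The other genes of COPII, COPI and ER-Golgi cargo had a median of −0.11 over 39 genes, with *Gosr2*, an ER-Golgi SNARE, at −0.54 and *Ergic2* at 0.79, and with the cargo receptors *Surf4* at −0.09 and *Tmed2* at −0.13. TANGO1 works with the protein of *Ctage5*, and the ratio of *Mia3* to *Ctage5* was 0.949 in siCtrl and 0.824 in si*Vgll3*.

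The 5 chains of fibrillar procollagen, from *Col1a1*, *Col1a2*, *Col3a1*, *Col5a1* and *Col5a2*, which are abundant secreted products of these cells, were set beside the machinery. They summed to 13963 TPM with siCtrl and 8458 with si*Vgll3*, 39.4% lower, with a median M of −0.86. The 42 ER and secretory genes with TPM summed to 1.11 TPM per TPM of these chains in siCtrl and to 1.57 in si*Vgll3*. Both sums are shares of the same total, so a lower share of one raises the others. The ratio of the 2 sums within a library does not depend on that total. It is a ratio to these chains and not to all secreted cargo, and the study had reported lower collagen mRNA after *Vgll3* knockdown. Other secreted products were unequal, with M of −0.34 for *Bgn*, −0.26 for *Dcn*, −1.22 for *Postn* and −1.23 for *Lum*.

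**Figure D5:**
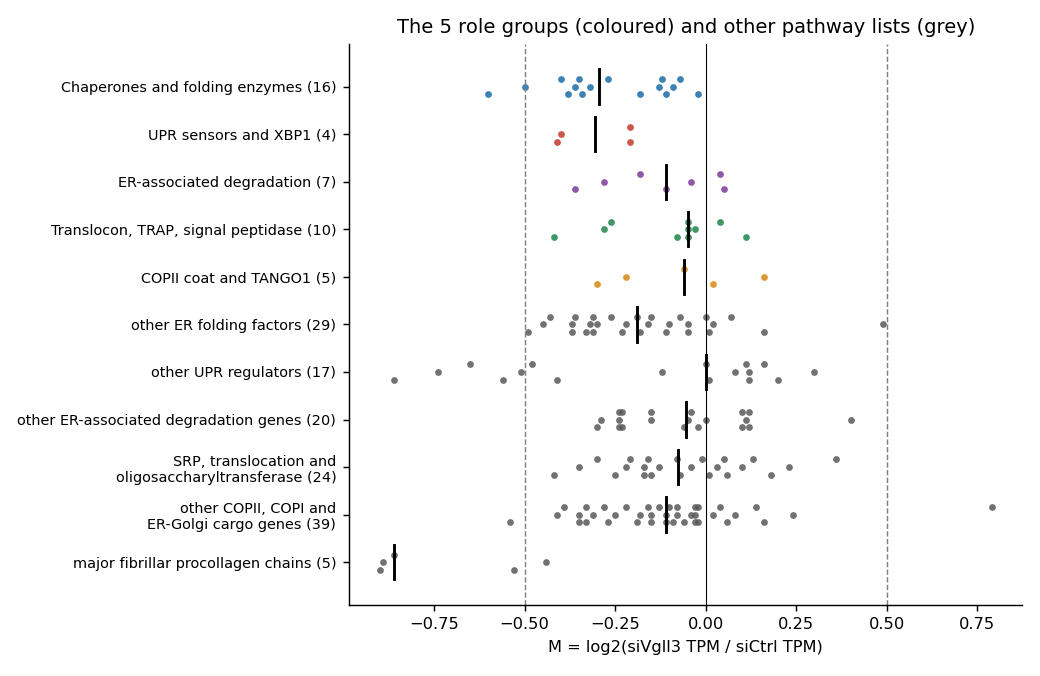
Each point is 1 gene with a mean above 1 TPM, by list, with the number of genes in parentheses, and the black bars are medians. The dashed lines mark M of −0.5 and 0.5. The chaperones (median −0.30) and the other ER folding factors (−0.19) lie mostly left of 0, the COPII genes around it and the procollagen chains (−0.86) far to the left.

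Part of the reads of some genes may come from a neighbour. In GENCODE vM21, 15 of the 43 share exonic bases with another annotated gene, 3 of them with a gene on the same strand. These 3 are *Hsp90b1* (with *Gm15344* and *Gm25745*), *Pdia4* (with *Mir704*) and *Manf* (with *Rbm15b*). Overlaps were not counted over all genes, so whether 15 of 43 is many is not known. The kit kept strand, but whether the counting used it is not stated in the sources used here.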

How the data were processed

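RNA was measured in 2 libraries of mouse cardiac myofibroblasts, 1 treated with siCtrl and 1 with si*Vgll3*. Libraries were made with the TruSeq Stranded mRNA LT kit and read on a NovaSeq instrument. The authors checked reads with FastQC, removed adapters, low-quality bases and reads under 36 bp with Trimmomatic, aligned them with HISAT2 to the mm10 genome, and ran StringTie on annotated genes. Versions and the annotation release are not given in the sources used here. The authors deposited raw read counts per gene, with no normalization, and TPM per gene in a table for each library. Groups were taken from the labels.

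M, A (log2 of the mean TPM of both libraries) and Clopper-Pearson intervals were computed in Python 3.11.15 with scipy 1.17.1. Genes with A above 0, a mean above 1 TPM, were kept, and M below −0.5 is the threshold of the study. The paper does not define its A, and its count of genes past the threshold differs from the 1341 found here. Ratios between genes carry 95% normal intervals from the counts. The intervals were tested on simulated counts that held counting error only, so that test does not bear on any other error of these libraries. No fit with replicates could be made, and edgeR 4.0.16 and DESeq2 1.42.0 gave scaling factors of the counts only. Every listed gene is named. Of the other pathway lists, up to 5 genes past the threshold in each direction and the 2 of highest mean TPM are named. The genes and lists were chosen with earlier results of these data known, so their counts and medians are descriptions. All listed symbols were matched, *Vimp* (now *Selenos*) by its NCBI gene ID. A planned search of protein ends was not run. Positions and windows are from RefSeq and exon overlaps from GENCODE.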

Additional observations from a re-analysis of the deposited data

How the results depend on the processing

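No paired analysis was possible because there was only 1 siCtrl and 1 si*Vgll3* library, and leaving a library out would have left no comparison. The count below −0.5 was 1 under each alternative scaling, filter and pseudocount, 0 at a threshold of 1, and it was 17 at a threshold of 0.25, added after the values were seen. The count above 0.5 was 0 under each. The count below 0 ranged from 31 to 36 of 42, the lowest with CPM, where the share of all genes below 0 was 49.3% against 57.0% with TPM, and was 33 of 38 with A above 5, against 50.9%. Scaling shifted all medians by about the median of all genes. The median M of the 42 genes, −0.18, was −0.13 both with CPM and when centred. The chaperones, at −0.30, gave −0.25 with CPM, −0.26 with TMM, −0.26 with DESeq2's size factors and −0.25 centred. The sensors and *Xbp1*, at −0.31, gave −0.25, −0.26, −0.27 and −0.26 in the same order, and −0.21 with A above 5, where only *Xbp1* remained. ER-associated degradation, at −0.11, gave −0.06, −0.07, −0.07 and −0.07, and −0.14 with A above 5. The genes of ER entry, at −0.05, gave 0.00, −0.01, −0.01 and −0.01, and the COPII genes, at −0.06, gave −0.01, −0.02, −0.02 and −0.01. Counting error was small at this depth, since the listed genes with an M had at least 2189 reads in each library and the widest interval of M spanned 0.16. It says nothing of the spread between cultures, which 1 library per condition does not show.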
